A study of Rattus norvegicus with 12 samples.

Results

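The ADAMTS proteases were followed across 3 cartilage zones of the proximal tibia of 10-day-old Sprague-Dawley rats. Members were Adamts1, 2, 3, 4, 5, 6, 7, 9 and 12, each read from the transcript cluster that carried its symbol alone, or from the brighter where a gene had 2 such clusters. A cluster of its own was found for 8 of the 9 members, of 14300 genes measured in this way, and Adamts6 was left out because no cluster carried its symbol. The superficial zone (SZ) and the combined intermediate/deep zone (IDZ) were the layers of articular cartilage, and the resting zone (RZ) was the layer of growth plate cartilage nearest to the secondary ossification centre. Zones were separated by hand from frozen sections of untreated animals, with 4 arrays per zone and 12 arrays in all. The 4 SZ samples each came from a single animal (animals 5 to 8), whereas replicates 1 to 4 of IDZ and of RZ each pooled the same pair of the 8 animals, so that the zones were not taken from separate animals. SZ replicate 4 stood apart as an array, with an interquartile range over all clusters of 2.24 (log2) against 2.50 to 2.91 on the other 11 arrays and the highest median, 6.90. No detection call was used, and the number of arrays limits the precision of every difference.

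ADAMTS proteases are secreted, zinc-dependent enzymes whose thrombospondin repeats and spacer domain anchor them in extracellular matrix. They are made with a propeptide that is usually removed by furin-type convertases, and they are held in check by tissue inhibitors, mainly TIMP3, and by uptake through the receptor LRP1. The family divides by substrate into enzymes that cut the large proteoglycans aggrecan and versican (ADAMTS1, 4, 5 and 9), enzymes that remove the N-propeptide of fibrillar procollagens (ADAMTS2 and 3) and enzymes known for cutting cartilage oligomeric matrix protein (ADAMTS7 and 12). ADAMTS4 and ADAMTS5 are best known in cartilage as the aggrecanases of osteoarthritis.

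Most of the measured members were spatially upregulated in SZ. Expression was higher in SZ than in IDZ for 6 of the 8 members (Adamts1, Adamts2, Adamts4, Adamts5, Adamts7 and Adamts12) at an adjusted p under 0.05, a threshold that 11.8% of all 27342 clusters passed in the same direction. At least 2-fold was reached by 5 of the 6, all but Adamts7, against 2.96% of clusters. Adamts3 was the 1 member that was higher in IDZ, where the share of all clusters was 11.2% (0.977% with at least 2-fold, which Adamts3 did not reach), and Adamts9 passed in neither direction. The median difference of the 8 members, SZ minus IDZ, was 1.26 on the log2 scale, and that of all clusters was -0.08. Against RZ, the same 6 members were higher in SZ, 5 of them by at least 2-fold, beside 10.0% and 3.19% of all clusters. None was higher in RZ, beside 11.1% of clusters (1.35% with at least 2-fold). By the clusters used here, none was higher in RZ at an unadjusted p under 0.05 by limma either. The second, dimmer cluster of Adamts3 was higher in RZ at that level (unadjusted p = 0.0457, adjusted p = 0.156, limma). Between IDZ and RZ, Adamts3 and Adamts12 were higher in IDZ, beside 2.78% of clusters, but Adamts12 lost its call with the shared animal pair as a replicate block (adjusted p = 0.0678), and no member was higher in RZ, also at an unadjusted p under 0.05 by limma, beside 3.95%. Neither of the differences of Adamts3 and Adamts12 reached 2-fold, which 0.519% of clusters did in that direction and 0.399% in the other. Without SZ replicate 4, the counts in both directions of all 3 comparisons were the same as with it. In bulk samples of this kind, fewer cells of a type and less RNA per cell cannot be told apart.

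**Figure D1:**
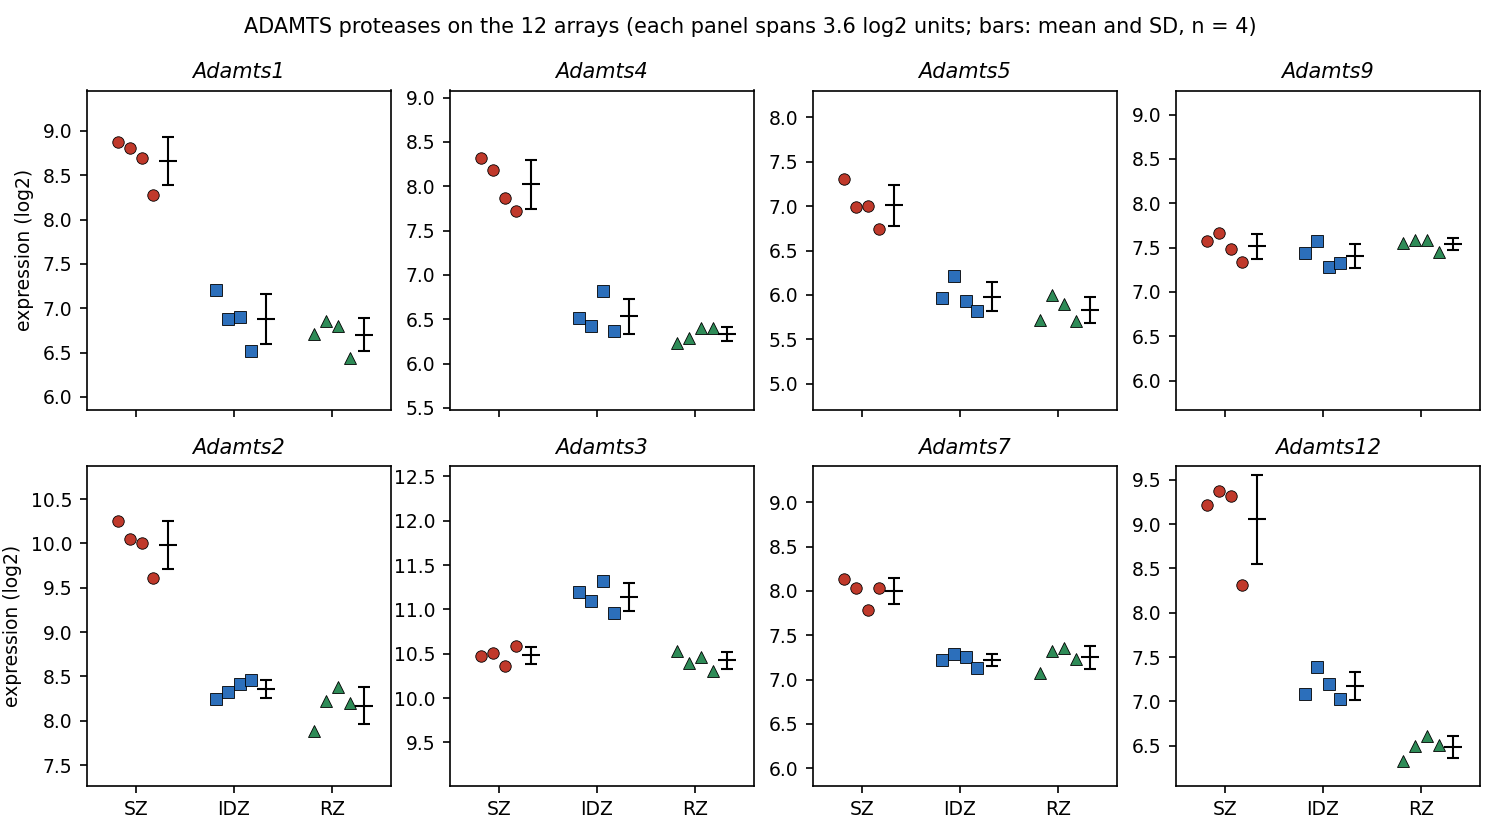
Expression (log2, y axis) of the 8 measured ADAMTS proteases on each array of SZ (circles), IDZ (squares) and RZ (triangles), with replicates 1 to 4 from left to right and bars for the mean and SD of 4 arrays; every panel spans the same range, and heights are not comparable between genes. All SZ arrays lie above all other arrays for Adamts1, Adamts2, Adamts4, Adamts5, Adamts7 and Adamts12, all IDZ arrays lie above all others for Adamts3, and the zones of Adamts9 overlap.

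The proximal promoters of the members whose expression moved together, and that of Adamts3, which moved the other way, are shown to set their base composition side by side. Each window, from RefSeq on build GRCr8, runs 5′ to 3′ on the gene's strand from 250 bases before to 50 after the annotated start, and 7 of the 8 members had one, all but Adamts5. Capitals mark a TATA box (TATAAA) or a GC box (GGGCGG), searched on both strands together with the AP-1 site (TGANTCA) and the Runx core (TGTGGT). The windows lie at chr2:61759737-61760036 (Adamts12, plus strand), chr11:38427335-38427634 (Adamts1, minus strand), chr10:35421780-35422079 (Adamts2, plus strand), chr13:86202761-86203060 (Adamts4, plus strand), chr8:99584279-99584578 (Adamts7, plus strand) and chr14:18514999-18515298 (Adamts3, plus strand).
Adamts12: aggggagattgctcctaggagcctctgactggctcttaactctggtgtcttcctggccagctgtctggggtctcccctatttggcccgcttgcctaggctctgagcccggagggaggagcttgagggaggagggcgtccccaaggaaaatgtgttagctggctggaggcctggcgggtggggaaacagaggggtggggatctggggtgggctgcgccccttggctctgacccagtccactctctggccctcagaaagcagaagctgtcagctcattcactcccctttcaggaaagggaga
Adamts1: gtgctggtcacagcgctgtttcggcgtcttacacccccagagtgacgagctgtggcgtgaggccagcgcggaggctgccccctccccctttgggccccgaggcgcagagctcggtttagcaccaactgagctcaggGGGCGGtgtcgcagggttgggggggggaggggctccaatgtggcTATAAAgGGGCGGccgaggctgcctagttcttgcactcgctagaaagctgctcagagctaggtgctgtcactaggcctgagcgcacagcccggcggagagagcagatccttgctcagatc
Adamts2: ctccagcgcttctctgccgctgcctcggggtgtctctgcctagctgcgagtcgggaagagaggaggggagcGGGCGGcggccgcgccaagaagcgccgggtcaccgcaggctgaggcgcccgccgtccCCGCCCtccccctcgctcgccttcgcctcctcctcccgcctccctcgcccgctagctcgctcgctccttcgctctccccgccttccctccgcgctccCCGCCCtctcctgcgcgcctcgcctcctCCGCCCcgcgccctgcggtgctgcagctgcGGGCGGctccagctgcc
Adamts4: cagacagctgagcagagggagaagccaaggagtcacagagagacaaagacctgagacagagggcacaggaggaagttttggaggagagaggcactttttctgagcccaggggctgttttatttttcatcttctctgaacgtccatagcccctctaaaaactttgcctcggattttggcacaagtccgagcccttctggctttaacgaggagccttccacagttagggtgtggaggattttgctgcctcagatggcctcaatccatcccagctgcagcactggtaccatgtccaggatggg
Adamts7: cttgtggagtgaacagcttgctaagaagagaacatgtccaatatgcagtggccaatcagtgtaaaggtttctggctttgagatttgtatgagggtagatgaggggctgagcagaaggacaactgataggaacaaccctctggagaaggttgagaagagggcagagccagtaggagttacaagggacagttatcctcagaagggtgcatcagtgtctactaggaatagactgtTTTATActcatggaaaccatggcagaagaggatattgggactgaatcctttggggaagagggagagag
Adamts3: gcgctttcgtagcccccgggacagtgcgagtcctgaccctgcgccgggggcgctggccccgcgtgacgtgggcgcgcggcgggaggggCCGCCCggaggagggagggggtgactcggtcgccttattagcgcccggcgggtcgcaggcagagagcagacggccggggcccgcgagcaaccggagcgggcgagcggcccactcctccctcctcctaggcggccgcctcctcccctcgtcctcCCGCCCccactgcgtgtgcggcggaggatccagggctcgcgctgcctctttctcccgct

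The windows of the members upregulated in SZ differed in base composition, from 46.7% G and C for Adamts7 to 76.7% for Adamts2. The TATA box letters in the Adamts7 window lay on the opposite strand, as TTTATA from position -18 relative to the start. The window of Adamts2 held 5 GC boxes, and that of Adamts3, its procollagen-cutting relative with the opposite zonal difference, held 76.3% with 2 GC boxes. The window of Adamts1 held 65.0% G and C, with 2 GC boxes and the TATA box letters on the gene's strand from position -70. Adamts12 and Adamts4, at 61.3% and 52.3%, held none of the 4 motifs. Neither the AP-1 site nor the Runx core was found in any of the 7 members' windows. Among all 33469 windows, whose median was 51.7% G and C, 33.1% held a GC box, 14.2% a TATA box, 17.3% a Runx core and 7.33% an AP-1 site. A match describes letters in the window and does not show that a factor binds there. On chromosome 11, Adamts1 and Adamts5 are consecutive protein-coding genes, and both were higher in SZ.

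The comparison of SZ with IDZ asked how the joint surface differs from the deeper articular cartilage. Of the proteases that cut aggrecan and versican, 3 of 4 were upregulated in SZ by at least 2-fold and the other, Adamts9, was level across the zones. Adamts1 codes for a versican- and aggrecan-cutting enzyme known for its part in ovulation. Its expression was 8.87, 8.80, 8.70 and 8.27 on SZ replicates 1 to 4, 7.21, 6.88, 6.91 and 6.52 on the IDZ arrays, and 6.71, 6.86, 6.80 and 6.44 on the RZ arrays. Every SZ array was above every IDZ and RZ array, which held for 10.2% and 9.61% of all clusters, whereas IDZ and RZ overlapped. The means were 8.66 ± 0.27 in SZ, 6.88 ± 0.28 in IDZ and 6.70 ± 0.19 in RZ (SD, n = 4 each). Expression in SZ was 3.44-fold that in IDZ (log2 difference 1.78, SE 0.16, adjusted p = 7.7e-07) and 3.89-fold that in RZ (adjusted p = 1.8e-07). IDZ and RZ differed by 0.18 (95% interval -0.16 to 0.51, adjusted p = 0.609).

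Adamts4, which codes for an aggrecanase that inflammatory cytokines raise in chondrocytes, had expression of 8.32, 8.18, 7.87 and 7.73 in SZ, 6.51, 6.42, 6.82 and 6.37 in IDZ and 6.24, 6.29, 6.40 and 6.40 in RZ. The SZ arrays again stood clear of the others, and the RZ arrays fell inside or just below the IDZ range. SZ was 2.81-fold above IDZ (log2 difference 1.49, SE 0.13, adjusted p = 9.92e-07) and 3.23-fold above RZ (adjusted p = 1.68e-07). IDZ exceeded RZ by 0.20 (95% interval -0.09 to 0.48, adjusted p = 0.467), which did not pass the test.

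Adamts5, the aggrecanase whose loss protects mice from experimental cartilage erosion, had the smallest difference of the 3 upregulated enzymes of this class. Its values were 7.30, 6.99, 7.00 and 6.74 in SZ, 5.96, 6.21, 5.93 and 5.82 in IDZ and 5.71, 6.00, 5.90 and 5.70 in RZ. SZ did not overlap with either deeper zone, and IDZ and RZ overlapped with each other. The log2 difference between SZ and IDZ was 1.03 (SE 0.13, 2.04-fold, adjusted p = 2.13e-05), close to the 2-fold limit, and ranged from 0.93 to 1.12 when arrays were left out in turn. SZ was 2.26-fold above RZ (adjusted p = 4e-06), and the difference between IDZ and RZ was 0.15 (95% interval -0.12 to 0.42, adjusted p = 0.581). The Adamts5 cluster was dim, with a mean of 6.27 over the 12 arrays against a median of 6.83 over all clusters.

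Adamts9, whose product cuts versican and is also active near the cell surface, did not follow the pattern of its relatives. Its expression was 7.58, 7.67, 7.48 and 7.34 in SZ, 7.44, 7.57, 7.28 and 7.32 in IDZ and 7.55, 7.58, 7.58 and 7.45 in RZ. All 3 zones overlapped. The differences were 0.11 for SZ minus IDZ (95% interval -0.10 to 0.32, adjusted p = 0.464), -0.14 for IDZ minus RZ (-0.34 to 0.07, adjusted p = 0.501) and -0.03 for SZ minus RZ (-0.23 to 0.18, adjusted p = 0.921). These intervals contain no 2-fold difference in either direction.

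The 2 procollagen N-proteinases were regulated in opposite directions. Adamts2, mutated in the dermatosparactic type of Ehlers-Danlos syndrome and its animal forms, had expression of 10.25, 10.05, 10.01 and 9.61 in SZ, 8.24, 8.32, 8.41 and 8.46 in IDZ and 7.89, 8.22, 8.38 and 8.20 in RZ. All SZ arrays were above all others, and IDZ overlapped with RZ. SZ was 3.07-fold above IDZ (log2 difference 1.62, SE 0.13, adjusted p = 4.75e-07) and 3.50-fold above RZ (adjusted p = 8.97e-08). IDZ minus RZ was 0.19 (95% interval -0.10 to 0.47, adjusted p = 0.507).

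Adamts3, which acts on procollagen II in biochemical assays and on the lymphatic growth factor VEGF-C, was highest in IDZ. Its brighter cluster read 10.47, 10.50, 10.36 and 10.59 in SZ, 11.20, 11.09, 11.32 and 10.96 in IDZ and 10.53, 10.40, 10.46 and 10.31 in RZ. Every IDZ array was above every SZ and every RZ array, which held for 12.1% and 9.08% of all clusters, and SZ overlapped with RZ. IDZ was 1.58-fold above SZ (log2 difference, SZ minus IDZ, -0.66, SE 0.10, adjusted p = 0.000132) and 1.64-fold above RZ (log2 difference 0.72, adjusted p = 0.000258). SZ and RZ differed by 0.06 (95% interval -0.15 to 0.27, adjusted p = 0.786). The second Adamts3 cluster read 9.21, 9.50, 9.56 and 9.33 in SZ, 10.20, 10.15, 10.26 and 10.11 in IDZ and 9.84, 9.60, 9.58 and 9.47 in RZ. Its IDZ arrays also stood above all others, with differences of -0.78 for SZ minus IDZ (adjusted p = 4.57e-05) and 0.56 for IDZ minus RZ (adjusted p = 0.0035). Its SZ minus RZ difference, -0.22 (unadjusted p = 0.0457, adjusted p = 0.156, limma), had the sign opposite to that of the brighter cluster. Neither passed the test after adjustment.

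Both proteases of the COMP-cutting class were upregulated in SZ, Adamts12 by at least 2-fold. Adamts12 values were 9.22, 9.38, 9.31 and 8.31 in SZ, 7.08, 7.39, 7.20 and 7.03 in IDZ and 6.33, 6.49, 6.62 and 6.51 in RZ. No pair of zones overlapped, and the order was SZ, IDZ, RZ, although SZ replicate 4 lay well below the other 3 SZ arrays. SZ was 3.68-fold above IDZ (log2 difference 1.88, SE 0.19, adjusted p = 2.8e-06) and 5.92-fold above RZ (log2 difference 2.57, adjusted p = 7.1e-08). Without SZ replicate 4 the difference to IDZ was 2.13. Among the 14300 genes, Adamts12 ranked 184 from the top for SZ minus IDZ and 125 from the top for SZ minus RZ.

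The step between IDZ and RZ for Adamts12 was 0.69 (SE 0.19, 1.61-fold, adjusted p = 0.0399), and this call depended on the fit. With the animal pair that IDZ and RZ share as a replicate block, the adjusted p was 0.0678, and it ranged from 0.000158 to 0.134 when arrays were left out in turn. The call was lost without SZ replicate 1 and without any 1 of the 4 IDZ or 4 RZ arrays, while the difference stayed between 0.61 and 0.73. Adamts7, whose product cuts COMP and is studied in vascular disease and arthritis, had values of 8.13, 8.03, 7.78 and 8.04 in SZ, 7.22, 7.29, 7.25 and 7.13 in IDZ and 7.08, 7.33, 7.36 and 7.23 in RZ. SZ did not overlap with the others, and the RZ arrays spanned the whole IDZ range. SZ was 1.71-fold above IDZ (log2 difference 0.77, SE 0.10, adjusted p = 3.16e-05) and 1.68-fold above RZ (adjusted p = 3.69e-05), below the 2-fold limit in both. IDZ minus RZ was -0.03 (95% interval -0.24 to 0.18, adjusted p = 0.925).

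**Figure D2:**
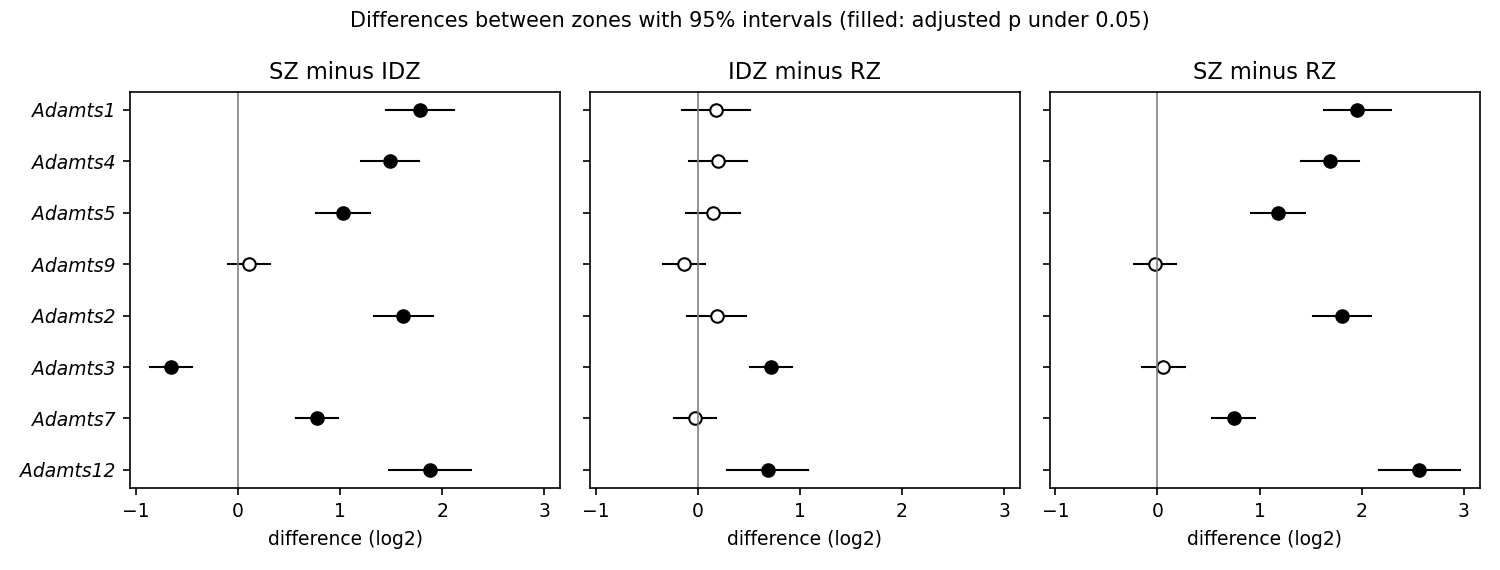
Differences in expression (log2, x axis) between SZ and IDZ, IDZ and RZ, and SZ and RZ for the 8 measured ADAMTS proteases, as points with 95% intervals from limma; filled points have an adjusted p under 0.05. Adamts3 alone lies left of 0 among the filled points for SZ minus IDZ, at -0.66, and only Adamts3 and Adamts12, at 0.72 and 0.69, are filled for IDZ minus RZ.

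The comparison of IDZ with RZ asked how deep articular cartilage differs from growth plate cartilage of the same animals. There 6 of the 8 members passed no test, as did 25502 of all 27342 clusters, so that not passing was usual in this comparison. The differences of the 5 upregulated members other than Adamts12 ran from -0.03 to 0.20, and none of them passed the test. The median over the 8 members was 0.18, and over all clusters 0.03.

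Pairs of proteases with like substrates were then compared by the difference of their log2 values on each array, which shows whether 1 shifted more than the other between zones. Of 12 such comparisons over 4 pairs, 8 passed at an adjusted p of 0.0429, each with the smallest p that an exact permutation test of 4 against 4 arrays can give, 0.0286. Adamts2 shifted against Adamts3 by 2.28 between IDZ and SZ and by 1.75 between RZ and SZ. The IDZ and SZ arrays were bound to separate in this pair. Every SZ array was above every IDZ array for Adamts2 and below every IDZ array for Adamts3. The p of that test therefore adds nothing to the differences of the single genes. The ranges of the single genes also fixed the separation of SZ from RZ in this pair. They likewise fixed that of SZ from both other zones for Adamts1 minus Adamts9, and of RZ from both other zones for Adamts12 minus Adamts7. The p-values of those tests add nothing either. The per-array difference Adamts2 minus Adamts3 was -0.50 ± 0.34 in SZ, -2.78 ± 0.21 in IDZ and -2.25 ± 0.26 in RZ (SD, n = 4), and the SZ arrays did not overlap with the others. Adamts1 shifted against Adamts9 by 1.67 between IDZ and SZ and by 1.98 between RZ and SZ.

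Adamts12 and Adamts7 separated at both steps. Adamts12 minus Adamts7 rose by 0.71 from RZ to IDZ and by 1.11 from IDZ to SZ, with no overlap between any pair of zones. The 0.71 had the same direction in 4 of 4 animal pairs, although an exact sign-flip test of 4 pairs cannot go below 0.125. The 2 aggrecanases were nearest to each other. Adamts4 exceeded Adamts5 in its shift between RZ and SZ by 0.51 (adjusted p = 0.0429, exact permutation test). However, Adamts5 was dim in IDZ and RZ, with means of 5.98 and 5.83 below the median of all clusters, 6.83. Adamts4 was also below that median there, at 6.53 and 6.33, as were Adamts1 and Adamts12 in RZ, at 6.70 and 6.49. The part of low levels in the size of these shifts, and in the smaller shift of Adamts5, was not tested. Between IDZ and SZ the excess of Adamts4 over Adamts5 was 0.46 (adjusted p = 0.0686), which did not pass the exact permutation test. Between RZ and IDZ the excess was 0.05, in 2 of 4 animal pairs (p = 0.875, exact sign-flip test). The remaining comparisons, Adamts1 against Adamts9 (0.31, adjusted p = 0.0935) and Adamts2 against Adamts3 (-0.53, adjusted p = 0.0686) for IDZ minus RZ, also did not pass the exact permutation test.

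**Figure D3:**
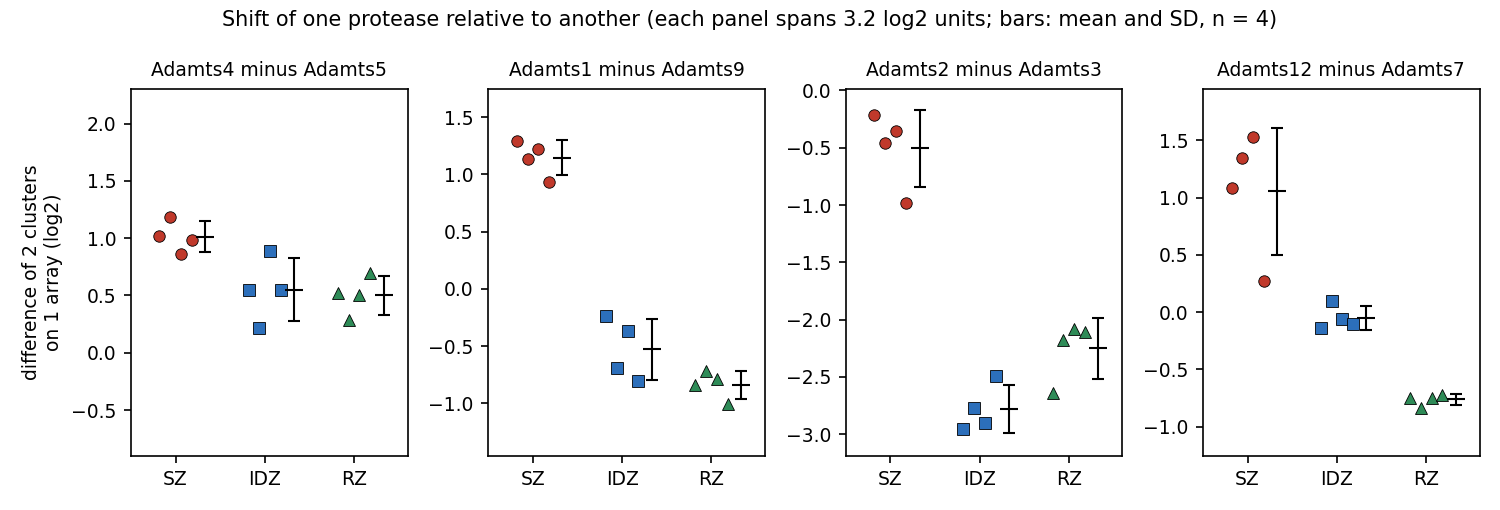
Difference between the log2 values of 2 proteases on the same array (y axis) in SZ (circles), IDZ (squares) and RZ (triangles), with bars for the mean and SD of 4 arrays; only the change between zones carries meaning, since each cluster has its own probes. Adamts2 minus Adamts3 changes most, from a mean of -2.78 in IDZ to -0.50 in SZ, and Adamts4 minus Adamts5 changes least.

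Of the other ADAMTS proteases, 3 had a cluster of their own, so that 11 of the 19 family genes in RefSeq were read. Higher in SZ than in IDZ were 8 of these 11, beside 11.8% of all clusters, and 6 of the 8 were the members counted above. Adamts19 was higher in SZ by 0.93 (adjusted p = 5.36e-05), and Adamts15, which codes for another versican-cutting enzyme, by 0.70 (adjusted p = 0.000284), both below 2-fold. Adamts14, the third procollagen N-proteinase gene, differed by 0.03 (adjusted p = 0.878) between SZ and IDZ and was higher in SZ than in RZ by 0.35 (adjusted p = 0.0257). Among the ADAMTS-like proteins, which lack the protease domain and bind fibrillin microfibrils, Adamtsl4 was 1.27 higher in SZ than in IDZ (adjusted p = 1.19e-06) and 0.89 higher in IDZ than in RZ (adjusted p = 0.000178). Adamtsl3 followed the same order, by 0.87 (adjusted p = 7.02e-05) and 0.75 (adjusted p = 0.00102). Adamtsl5 passed no test, with a difference of -0.17 between SZ and IDZ.

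Genes for the activation, inhibition and clearance of ADAMTS proteases were divided, with 5 of 11 higher in SZ than in IDZ, 5 higher in IDZ and 1 not called, around a median difference of 0.03. All 4 tissue inhibitors of metalloproteinases were higher in SZ. Timp1 was higher by 1.07 (adjusted p = 2.26e-05) and Timp3, the main tissue inhibitor of ADAMTS4 and ADAMTS5, by 0.83 (adjusted p = 0.00439). A2m, which codes for the broad protease trap alpha-2-macroglobulin, was lower in SZ by a log2 difference of -2.26 (adjusted p = 5.34e-08) and was 1.12 higher in IDZ than in RZ (adjusted p = 0.000228). The convertase gene Pcsk6 was lower in SZ than in IDZ, with a difference of -1.47 (adjusted p = 1.33e-06). Lrp1, for the receptor that takes up ADAMTS proteases, differed by 0.03 (adjusted p = 0.878). Against RZ, Timp3 and Timp4 did not pass, with differences of 0.38 (adjusted p = 0.205) and 0.34 (adjusted p = 0.114), and the mean of Pcsk6 was 10.21 in RZ and 9.86 in IDZ (adjusted p = 0.168).

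The substrates of each class did not all move with their enzymes. Vcan, for versican, was higher in SZ than in IDZ by 2.91 (adjusted p = 1.66e-08) and higher in IDZ than in RZ by 1.97 (adjusted p = 2.69e-06), while Acan, for aggrecan, was lower in SZ by a difference of -0.64 (adjusted p = 8.23e-05). Of the fibrillar procollagen genes, whose products the N-proteinases cut, 5 of 6 had an SZ level above that of IDZ. Col1a1 was higher by 1.93 (adjusted p = 0.000282) and Col3a1 by 1.92 (adjusted p = 1.69e-07), in the direction of Adamts2. Col2a1, the main cartilage collagen, differed by -0.19 (adjusted p = 0.111). Comp had no cluster of its own. Fbn1, for fibrillin-1 of microfibrils, was higher in SZ by 0.93 (adjusted p = 2.93e-05). Of the substrates in the remaining list, Reln was lower in SZ than in IDZ by a difference of -1.53 (adjusted p = 2.23e-06) and higher in IDZ than in RZ by 0.70 (adjusted p = 0.00964).

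**Figure D4:**
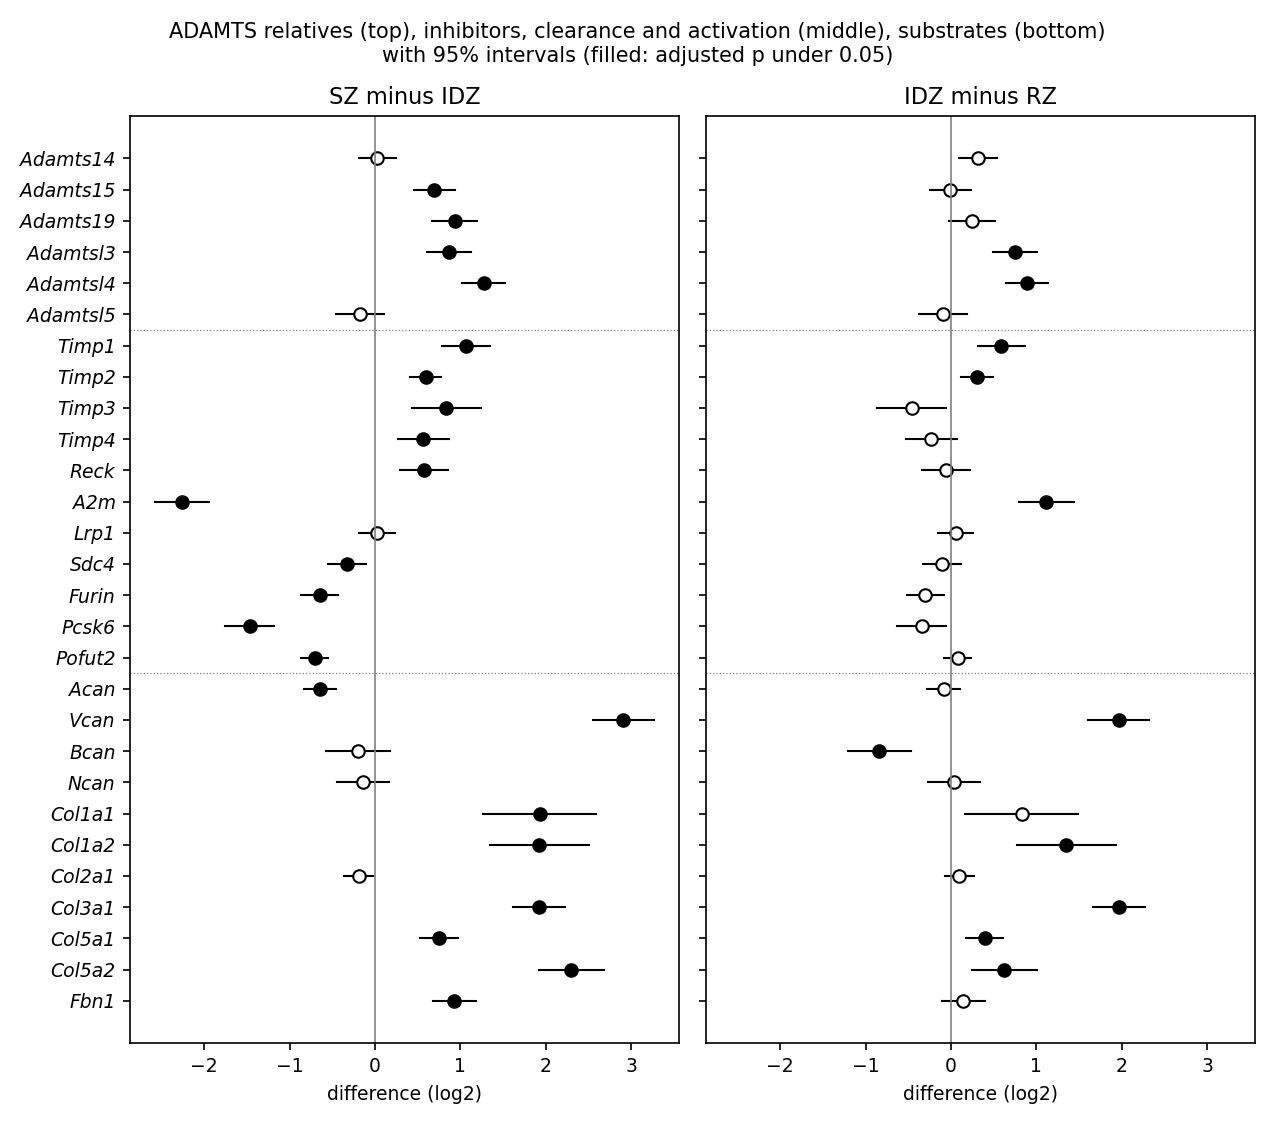
Differences in expression (log2, x axis) of genes related to the ADAMTS proteases for SZ minus IDZ and IDZ minus RZ, as points with 95% intervals from limma; filled points have an adjusted p under 0.05. Vcan lies farthest to the right for SZ minus IDZ, at 2.91, and A2m farthest to the left, at -2.26.

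The labelled zones were checked against the SZ marker Prg4, for lubricin, whose mean was 12.78 in SZ, 10.31 in IDZ and 5.68 in RZ. Of the 6 zone markers measured, Prg4 was the 1 higher in SZ than in IDZ, 4 were lower and 1 was not called. The lower ones were Epyc (-2.75), Snorc (-1.41), Matn3 (-1.32) and Acan (-0.64). On IDZ replicate 4 Prg4 was 8.86, against 10.61 to 10.95 on the other IDZ arrays. Most markers of cell types that could lie at the joint surface moved with the 6 upregulated proteases. Of the endothelial markers, 8 of 9 were higher in SZ than in IDZ, and their mean level ran from 8.27 to 8.79 in SZ, from 6.52 to 6.82 in IDZ and from 6.34 to 6.53 in RZ. The same held for 7 of 8 mural cell markers, with a mean level of 9.22 to 9.57 in SZ and 7.41 to 7.81 in IDZ, and for 12 of 12 macrophage and myeloid markers, at 8.09 to 9.01 and 6.51 to 6.69. The remaining mural marker, Cspg4, was lower in SZ than in IDZ, with a difference of -0.37 (adjusted p = 0.0291). Of the tendon and fibrous tissue markers, 10 of 11 were higher, at 10.38 to 10.91 in SZ, 8.20 to 8.52 in IDZ and 7.35 to 7.58 in RZ. Bone and osteoclast markers were higher in 2 of 6 cases and lower in 1. Of the skeletal muscle markers, 0 of 7 were higher in SZ than in IDZ and 1, Tnnt3, was lower (-1.58). None of the 4 erythroid markers was called. The part of these cell types in the differences of the proteases was not tested.

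Genes whose pattern over the 12 arrays was most like that of each protease were sought among 8296 genes. These had a mean over the 12 arrays of at least the median of all clusters, 6.83, and dimmer genes were not searched. The search is a description in which the zone means account for much of the likeness. For Adamts1 the nearest were Aplnr (Pearson r = 0.997), Cd4 and Tagln2, and for Adamts4 they were Clec14a (r = 0.996), Crip2 and Adam9. After the zone means were removed, r was 0.952 for Adamts1 with Aplnr and 0.941 for Adamts4 with Clec14a. These were the highest such values among the genes named here. The lowest were 0.692 for Adamts3 with Kcnd3 and 0.497 for Adamts3 with Scarf2. Adamts5 was most like Tm6sf1 (r = 0.989), Gimap4 and St6gal1. Adamts2 was most like Rarres2 (r = 0.995), Cd48 and Sfxn3, and Adamts12 was most like Igfbp6 (r = 0.994), Fbln5 and Egfr. Adamts7 was most like Gab2 (r = 0.987), Ccnjl and Gja4. For Adamts3 the nearest were Kcnd3 (r = 0.962), Coro6 and Scarf2, and for the level Adamts9 they were Med27 (r = 0.902), Usp21 and Rreb1. The 12 points share zones, animals and normalization.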

How the data were processed

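RNA of microdissected SZ, IDZ and RZ was hybridised to Affymetrix Rat Gene 1.0 ST arrays, which carry probes along whole transcripts. The authors processed all 12 arrays together by RMA in Partek Genomics Suite 6.6 (background correction, quantile normalization, median polish), and the deposited values are log2 expression per transcript cluster. Such normalization removes shifts shared by all genes of an array, although the deposited arrays still differed in spread (interquartile range 2.24 to 2.91). Clusters were named from the platform annotation: of 27342, 15068 carried 1 symbol, 323 several and 11951 none. limma 3.58.1 (R 4.3.3) fitted 1 mean per zone to all clusters, and p-values were adjusted by Benjamini-Hochberg within each comparison. Calls required an adjusted p under 0.05, also counted with at least 2-fold. Pairs of members were compared by two-sided exact permutation tests (scipy 1.17.1), adjusted over 12 tests. Scripts were tested on simulated data.

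All members with a cluster were described in full. From the fixed lists, only some of the genes called in a comparison were named, and these were not always those with the largest difference. Col5a2, for example, was 2.30 higher in SZ than in IDZ. A few genes were named whatever their values, as were the 3 genes of most like pattern per member. The members and lists were chosen with earlier results of these data known. Per the labels, the numbers of IDZ and RZ samples pair them, since each number stands for the same 2 animals. The deviations of same-numbered samples correlated by 0.018, 0.022, 0.027 and 0.205. Those of differently numbered samples correlated by -0.205 to 0.237, a range that holds all of the same-number values. Alternatives were other scalings, a filter on dim clusters, fold limits, blocks and leaving out each array.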

Additional observations from a re-analysis of the deposited data

Results flagged for a closer look

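Adamts12 on SZ replicate 4 had a value of 8.31, below the other 3 SZ arrays at 9.22 to 9.38. Its gap to the nearest SZ array was 0.850 of the range of the zone, above Dixon's 95% critical value for 4 samples. It was the 1 such value among 24 combinations of member and zone, and chance alone marks about 1 group in 20. The whole array was narrow, with an interquartile range of 2.24 over all clusters against 2.72 to 2.91 on the other SZ arrays, and its part in this value was not tested. Without this array the Adamts12 difference was 2.13 between SZ and IDZ and 2.81 between SZ and RZ, against 1.88 and 2.57 with it.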

How the results depend on the processing

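Of the differences of single members recomputed under alternative settings, 518 kept their direction and their side of the threshold, 26 fell short of it and 5 changed sign. The count of members higher in SZ than in IDZ was 3 when a difference beyond 2-fold was itself tested (treat), against 6; the count higher in IDZ than in SZ was 0 under that test and 0 at 2-fold or more, against 1. Higher in IDZ than in RZ were 1 member with plain one-way contrasts, 1 with the animal pair as a fixed replicate block, 1 with it as a random block and 1 with median-centred arrays, 0 under both 2-fold rules, and 1 to 2 when arrays were left out in turn, against 2; the member lost was Adamts12, and the replicate block changed no other call. Of the comparisons between pairs of proteases, 0 of 12 passed when any 1 array was left out, against 8, since 3 against 4 arrays cannot go below an exact p of 0.0571 and the comparisons that kept 4 against 4 did not pass the adjustment over all 12. The reversals were all of differences that passed no test: Adamts9, SZ minus RZ, from -0.03 to 0.0388 with the fixed block and 0.0329 without SZ replicate 4 (range over arrays left out -0.0762 to 0.0329); Adamts3, SZ minus RZ, from 0.06 to -0.083 for the mean of its clusters; Adamts7, IDZ minus RZ, from -0.03 to 0.0051 without IDZ replicate 4 and 0.011 without RZ replicate 3 (range -0.0841 to 0.011); and Adamts4 minus Adamts5, IDZ minus RZ, from 0.05 to -0.0661 without IDZ replicate 3 and -0.03 without RZ replicate 2 (range -0.0661 to 0.1588). The cause was not tested. Adamts5 is dim and was not among the clusters kept by the filter.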

Other observations

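Within a zone, the members tended to be low on the same arrays. The share of all clusters that were lowest on each array was not counted, so the counts are not shown to be particular to the members. SZ replicate 4 was the lowest SZ array for 6 of the 8 members and the highest for 1, Adamts3. IDZ replicate 4 was the lowest IDZ array for 6 of the 8 members, and RZ replicates 1 and 4 were each the lowest RZ array for 4. SZ replicate 4 had the narrowest spread of all 12 arrays over all clusters, with an interquartile range of 2.24. Among the SZ arrays it also had the lowest mean level of the endothelial, mural, macrophage and tendon marker lists, at 8.27, 9.22, 8.09 and 10.38, and of the erythroid list, at 7.39 against 9.19 to 10.10. IDZ replicate 4 was likewise the lowest IDZ array for the endothelial, mural, macrophage and tendon lists, at 6.52, 7.41, 6.51 and 8.20. For the erythroid list it was the highest IDZ array, at 9.53.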
